A study of Mus musculus with 18 samples.

Results

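The genes described here run the cell division cycle: 47 genes were listed by name for their roles in the G1 phase, in DNA replication and in mitosis, not for any measured value. Of these, 45 had a row in the expression table, which holds 34082 gene symbols, and Cdt1 and Gins2 were not analysed here. A filter on low values, at least 1 FPKM in at least 2 libraries, was passed by 44 of the 45 and not by Ccne1. FPKM counts sequenced fragments per kilobase of transcript, scaled to the size of the library, so levels of different genes are given per length. RNA sequencing was done on thymocytes, the cells that become T cells in the thymus, sorted from C57BL/6 mice at postnatal day 10. The 18 libraries came from 7 populations, each taken from the same strain, tissue and age: DN1ab, DN1d and ImmV2, each with n = 2, and DN1e, DN1 ckit+, DN2 and DN4, each with n = 3. The series concerns progenitors of Tgd17 cells, gamma-delta T cells that make interleukin-17, and ImmV2 is named as the population to which the others may be compared. About 10000 cells per population went into an amplified cDNA library, per the labels' protocols, and neither the sorting markers nor the number of mice per library is given in the sources used here.

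DN is short for double-negative, meaning that neither of the coreceptors CD4 and CD8 is on the cell surface, and the numbers follow the order of development. As background, a cell enters the cycle when D-type cyclins with Cdk4 or Cdk6 release E2F factors from the retinoblastoma protein, and E2F factors then switch on the genes for DNA replication. Origins are licensed when Cdc6 helps to load the ring of Mcm2 to Mcm7 onto DNA, nucleotides and polymerases are supplied for the S phase, and cyclin B with Cdk1 then drives the cell into mitosis. In the thymus, DN2 cells are known to divide, and the cells that pass the pre-T cell receptor checkpoint on the way to DN4 divide fast.

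In every library the lowest value in the table corresponded to 0.01 FPKM, and between 34.8% and 53.6% of all rows had it. Housekeeping genes were among those rows: Actb, which encodes beta-actin, was at 0.01 FPKM in DN1e 1, DN1e 2 and ImmV2 1 and at 1584.9 FPKM in DN2 2. The lowest value is therefore not read as absence, and levels are given library by library in the order of the replicate numbers. No fold of a gene is set against a single population that has the lowest value throughout. A mean over several populations may include such a population. The library DN4 3 stood apart: 44 of the 45 genes and 12 of 12 housekeeping genes were at 1 FPKM or more in it, against 19 to 29 of the 45 and 4 to 10 of the 12 in the other libraries. The main results that involve DN4 are therefore also given without that library. The share of all rows at 1 FPKM or more was 31.2% in DN4 3 and 30.2% to 30.5% elsewhere. The summed level of the 12 housekeeping genes was 2910 to 4620 FPKM in DN4 and 102 to 1960 FPKM in the other populations, and its part in the differences of DN4 described here was not tested. As a check of the labels, Kit, the receptor that the name DN1 ckit+ refers to, was at 95.6, 49.9 and 141 FPKM in that population and at 1.63, 2.92 and 0.563 in DN4. Kit overlapped between DN1 ckit+ and DN2, where it was at 13.9, 60.3 and 106 FPKM. Other progenitor markers were less clear. Cd44 was at 0.0131, 0.0515 and 45.0 FPKM in DN1 ckit+. Il2ra was at 25.5, 80.5 and 43.4 FPKM in DN2, 0.988 and 132 in DN1d and 0.756 and 82.7 in ImmV2. The labels were thus checked only in part. The T cell receptor component Cd3e was at 170.0, 105 and 166 FPKM in DN4 and at 0.136, 0.01 and 0.830 in DN2. The related components Cd3g and Cd3d overlapped between these populations. Cd3g was at 15.1, 0.01 and 67.5 FPKM in DN4 and at 19.9, 152 and 34.3 in DN2. Cd3d was at 20.1, 1.68 and 29.0 FPKM in DN4 and at 0.01, 0.422 and 17.8 in DN2. The summed level of 8 macrophage and granulocyte markers was 768 to 1280 FPKM in DN1e, and that of 6 B cell markers was 858 to 1250 FPKM in DN1d. The members of each list did not agree. In DN1e, Lyz2 was at 406, 290 and 226 FPKM and Fcer1g at 700, 278 and 371. Csf1r was at 0.01, 0.01 and 0.0837 FPKM there and Mpo at 0.527, 0.01 and 1.16. In DN1d, Igkc was at 843 and 1205 FPKM and Cd79a at 0.01 and 27.0. In bulk libraries such as these, fewer cycling cells and less RNA per cycling cell cannot be told apart. No counts were used, and library depth is therefore unknown.

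**Figure D1:**
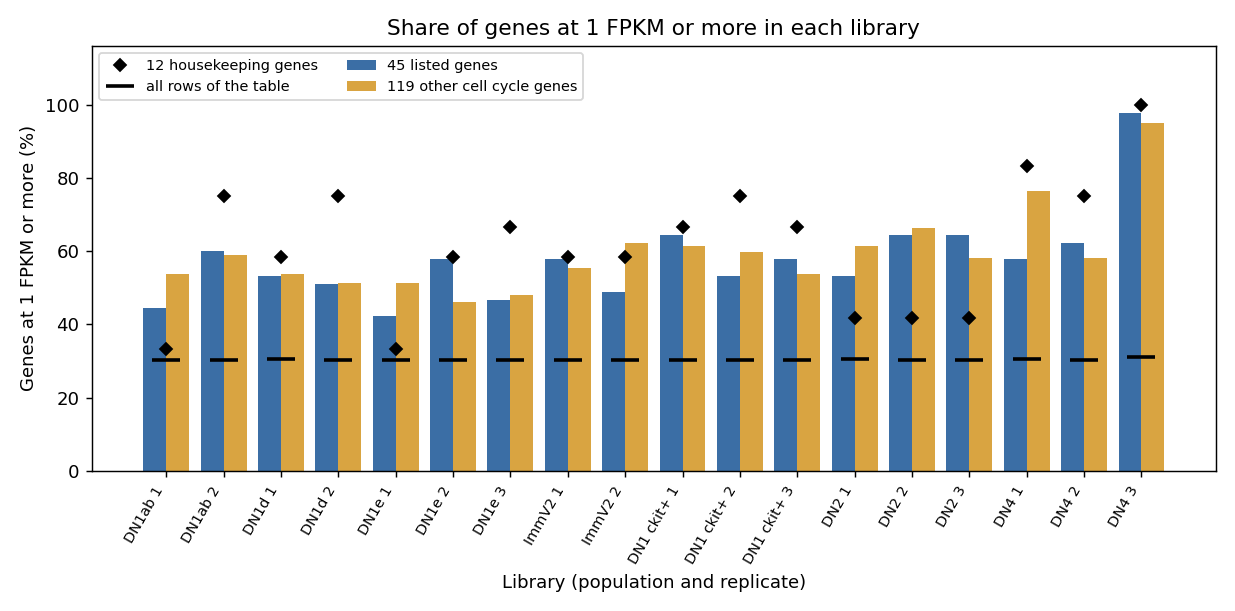
Share of genes at 1 FPKM or more (vertical axis, percent) in each of the 18 libraries (horizontal axis). Blue bars stand for the 45 listed genes, yellow bars for 119 other cell cycle genes, diamonds for 12 housekeeping genes and dashes for all rows of the table. DN4 3 has 44 of the 45 listed genes at this level, and no other library has more than 29.

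Most of the cell cycle genes had their highest level in DN4 or DN2, and none passed the test across populations described further on. By the mean of log2(FPKM + 1), 17 of the 44 tested genes (38.6%) had their highest level in DN4, against 13.1% of all 24525 tested genes. A further 10 (22.7%) had it in DN2, against 11.9% of all tested genes. None had it in DN1e, where 15.8% of all tested genes were highest. The lowest level fell in DN1ab for 13 genes (29.5%, against 25.8% of all tested genes), in DN1e for 11 (25.0%, against 14.0%) and in DN1d for 10 (22.7%, against 20.4%). It fell in DN4 for 0 (against 8.38% of all tested genes), and for 2 (4.55%, against 11.2%) without DN4 3. Without DN4 3, DN2 held the highest level of 12 of the 44 (27.3%, against 11.7% of all tested genes) and DN4 of 11 (25.0%, against 14.6%). The libraries of DN4 lay above all others for Mcm2, and those of DN2 and DN4 did so for Rrm1 and, by a narrow gap, Tk1. The map of all 45 genes shows how far replicates of a population could lie from each other.

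The G1 cyclins and kinases open the cycle, and 8 of them had a row. Cdk4, the kinase partner of the D-type cyclins, had the highest median level of the group, 91.4 FPKM over the 18 libraries. It was at 121, 165 and 202 FPKM in DN4 and at 109, 142 and 144 in DN2. Levels were 4.90 and 88.2 FPKM in DN1ab, 94.6 and 8.16 in DN1d, 7.63, 50.1 and 0.553 in DN1e, 0.0664 and 112 in ImmV2 and 117, 2.40 and 0.316 in DN1 ckit+. Every DN4 library thus lay above every library of those 5 populations, while DN2 and DN4 overlapped. Cdk6, the other partner of the D-type cyclins, was at 0.121, 0.01 and 244 FPKM in DN2 and at 0.01, 0.204 and 115 in DN4, so a high value in 1 library stood beside very low ones. Cdk2, the partner of cyclins E and A, was at 0.0431, 1.38 and 459.6 FPKM in DN1e and at 12.0, 293 and 10.6 in DN2, and every DN2 library lay above every DN4 library, where it was at 7.85, 9.55 and 8.81 FPKM. Among the cyclins, Ccnd3, the D-type cyclin known to be needed for the expansion of early thymocytes, was above 1 FPKM in all 18 libraries and ranged from 1.31 FPKM in DN1 ckit+ 1 to 23.7 FPKM in DN4 3. Ccnd2 ranged from 0.01 FPKM to 49.7 FPKM in DN1 ckit+ 3, with the lowest value in 6 libraries. Ccnd1 reached no more than 5.41 FPKM, in DN1ab 2, and was at 0.697, 0.195 and 0.0498 FPKM in DN4, below both DN1ab libraries (2.06 and 5.41 FPKM). Of the E-type cyclins, which act with Cdk2 at the entry into S phase, Ccne2 was at 1 FPKM or more in 5 libraries and Ccne1 in 1, DN4 3, at 3.26 FPKM.

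The list held 3 inhibitors of cyclin-dependent kinases. Cdkn1a, which encodes p21, a target of p53, had the highest median of them at 7.34 FPKM. It was at 1.24 and 6.53 FPKM in DN1ab, 0.0770 and 8.95 in DN1d, 1.49, 10.9 and 14.9 in DN1e and 0.01 and 152 in ImmV2. In the other populations it was at 17.6, 8.16 and 4.78 FPKM in DN1 ckit+, 0.01, 12.7 and 26.8 in DN2 and 12.7, 1.83 and 1.07 in DN4. The libraries of each population overlapped those of the others, and the value of 152 FPKM in ImmV2 2 lay opposite the lowest value in ImmV2 1. Cdkn2c, which encodes p18 and binds Cdk4 and Cdk6, was at 4.31, 3.37 and 4.34 FPKM in DN4. It was in DN1e at 0.01, 39.3 and 0.01 FPKM, in DN2 at 0.01, 0.584 and 0.01 FPKM and in DN1 ckit+ at 0.0136, 0.430 and 0.01 FPKM. It was in DN1ab at 0.0878 and 0.01 FPKM, in DN1d at 0.204 and 0.01 FPKM and in ImmV2 at 0.01 and 0.01 FPKM. The DN4 values lay close together and above those of every library but DN1e 2. Cdkn1b, which encodes p27, stayed between 0.01 and 5.94 FPKM.

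Both E2F factors on the list, which activate replication genes, were low to moderate. E2f1 was at 4.60, 2.48 and 4.38 FPKM in DN4, 2.21, 1.96 and 5.28 in DN2, 1.51, 0.0828 and 3.84 in DN1 ckit+ and 31.6 and 2.66 in ImmV2. In the remaining libraries it was at 0.01 and 9.71 FPKM in DN1ab, 1.54 and 0.01 in DN1d and 4.03, 2.95 and 0.739 in DN1e. The highest level was in ImmV2 1, and the DN4 libraries lay within the range of the others. E2f2 was at 0.01, 20.3 and 17.3 FPKM in DN4, 19.8 and 4.34 in ImmV2 and 6.58, 0.01 and 12.1 in DN2. It was at 0.453 and 0.01 FPKM in DN1ab, 0.01 and 0.136 in DN1d, 17.6, 0.01 and 13.4 in DN1e and 0.0249, 2.28 and 0.528 in DN1 ckit+. The DN1ab and DN1d libraries were thus all under 1 FPKM, and every other population spanned a range of more than 2 FPKM.

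Among the roles with more than 1 gene, origin licensing had the widest gap between DN4 and the rest. All 8 licensing genes were higher in DN4 than in the mean of the 6 other populations, with a median log2 difference of 2.27, and 5 of the 8 were so without DN4 3, with a median of 1.77. Mcm2, a subunit of the Mcm2 to Mcm7 ring that unwinds DNA, was at 59.5, 58.6 and 62.4 FPKM in DN4 and at 24.0, 29.6 and 25.8 in DN1 ckit+. It was at 17.1 and 16.6 FPKM in ImmV2, 23.2, 0.378 and 0.476 in DN2 and 3.23, 16.9 and 14.3 in DN1e. In DN1ab it was at 0.01 and 23.3 FPKM and in DN1d at 1.88 and 1.98 FPKM. Each DN4 library lay above all 15 other libraries, where the highest level was 29.6 FPKM. Mcm2 was the only gene of the 44 (2.27%) with DN4 above all other libraries, which held for 0.412% of all tested genes. Mcm4, another subunit of the ring, was at 81.1, 108 and 125 FPKM in DN2 and at 0.01, 15.0 and 118 in DN4. It was at 1.35 and 0.01 FPKM in ImmV2, 0.0150, 28.5 and 0.01 in DN1 ckit+, 0.01 and 10.8 in DN1ab, 15.1 and 1.18 in DN1d and 1.09, 0.722 and 0.01 in DN1e. The DN2 libraries lay above every library outside DN4. Mcm3 was at 3.32, 64.9 and 57.5 FPKM in DN4, and 10 of the 18 libraries had it at the lowest value, all of DN1ab, DN1e and ImmV2 among them. Mcm7 was at 0.102, 0.341 and 163 FPKM in DN4 and at 1.70, 0.832 and 137 in DN2, high in 1 library of each and under 4 FPKM in all others. Mcm5 was at the lowest value in 11 libraries and reached 77.1 FPKM in DN1e 2, and Mcm6 was at the lowest value in 9 and reached 160 FPKM in DN1ab 1. The ring is built from its subunits in equal number. Their RNA values in these libraries did not move as a block: DN4 1 had Mcm2 at 59.5 FPKM beside Mcm4 and Mcm5 at the lowest value. As the lowest value is not read as absence, these RNA values do not tell how the ring was made up. Cdc6, which helps to load the ring, was at 26.7, 24.9 and 18.9 FPKM in DN4 and at 0.01, 18.6 and 19.7 in DN2. Gmnn, which encodes geminin and blocks licensing in the S phase by binding Cdt1, was at 62.9, 34.8 and 40.0 FPKM in DN4 and at 32.9, 2.13 and 36.9 in DN2. For both genes, each DN4 library lay above all libraries of DN1ab, DN1d, DN1e, ImmV2 and DN1 ckit+.

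At the replication fork, Prim1 and Pola1 were not highest in DN4. Prim1, the catalytic subunit of primase, was at 159 and 117 FPKM in DN1ab, 74.5, 50.2 and 41.8 in DN2 and 36.9, 0.01 and 28.6 in DN4. It was at 134 and 0.01 FPKM in DN1d, 2.74, 9.53 and 22.4 in DN1e, 7.27 and 0.01 in ImmV2 and 26.2, 17.6 and 32.3 in DN1 ckit+. Both DN1ab libraries and all 3 DN2 libraries lay above every DN4 library. Pola1, the catalytic subunit of DNA polymerase alpha, was at 29.2, 28.6 and 26.8 FPKM in DN4, 29.1, 32.4 and 35.2 in DN2 and 25.3, 0.01 and 144 in DN1 ckit+. It was at 0.01 and 23.1 FPKM in DN1ab, 0.01 and 3.98 in DN1d, 0.01, 0.01 and 0.01 in DN1e and 0.01 and 22.4 in ImmV2. The 6 libraries of DN2 and DN4 lay within 26.8 and 35.2 FPKM, and in DN1e every library was at the lowest value. Pcna, the sliding clamp of the polymerases, was at 0.01, 169 and 186 FPKM in DN4 and at 0.01, 158 and 0.0793 in DN2, from the lowest value to a high one within both. Cdc45, part of the active helicase, reached 114 FPKM in DN1 ckit+ 3 and was at 1.32, 13.5 and 24.2 FPKM in DN4.

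Among the genes of nucleotide supply, Rrm1 and Tk1 set DN2 and DN4 together apart from the rest. Rrm1, the large subunit of ribonucleotide reductase, which makes deoxynucleotides, was at 68.5, 104 and 87.4 FPKM in DN2 and at 77.2, 78.2 and 82.5 in DN4. It was at 38.8, 7.40 and 0.0180 FPKM in DN1 ckit+, 7.98 and 24.4 in ImmV2 and 7.45, 0.198 and 22.6 in DN1e. In DN1ab it was at 0.01 and 0.0461 FPKM and in DN1d at 7.01 and 0.01 FPKM. All 6 libraries of DN2 and DN4 were at 68.5 FPKM or more, and the highest of the 12 others was at 38.8 FPKM. Tk1, the thymidine kinase of the S phase, was at 32.0, 57.0 and 69.8 FPKM in DN2 and at 72.9, 51.2 and 40.4 in DN4. It was at 13.5 and 15.4 FPKM in DN1ab, 0.927 and 14.5 in DN1d, 9.30, 14.2 and 31.1 in DN1e, 5.28 and 10.5 in ImmV2 and 11.4, 10.5 and 7.91 in DN1 ckit+. The gap here was narrow, from 31.1 FPKM in DN1e 3 to 32.0 FPKM in DN2 1. Rrm1 and Tk1 were 2 of the 44 (4.55%) whose DN2 and DN4 libraries lay above all others, which held for 0.0979% of all tested genes. Tyms, thymidylate synthase, had the highest median of the group, 16.2 FPKM, and was at 0.01, 70.8 and 35.3 FPKM in DN2 and at 0.01, 60.9 and 56.4 in DN4. It was at 0.01 and 0.01 FPKM in DN1ab, 19.8 and 0.01 in DN1d, 0.01, 12.5 and 22.7 in DN1e, 0.01 and 18.2 in ImmV2 and 43.7, 14.3 and 28.5 in DN1 ckit+. The lowest value in DN2 1 and DN4 1 stood beside the highest levels in DN2 2 and DN4 2, so the populations overlapped. Rrm2, the small subunit of ribonucleotide reductase, was at 7.32, 7.21 and 150.5 FPKM in DN4 and at 0.01, 3.12 and 75.6 in DN2, and so did not follow Rrm1.

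**Figure D2:**
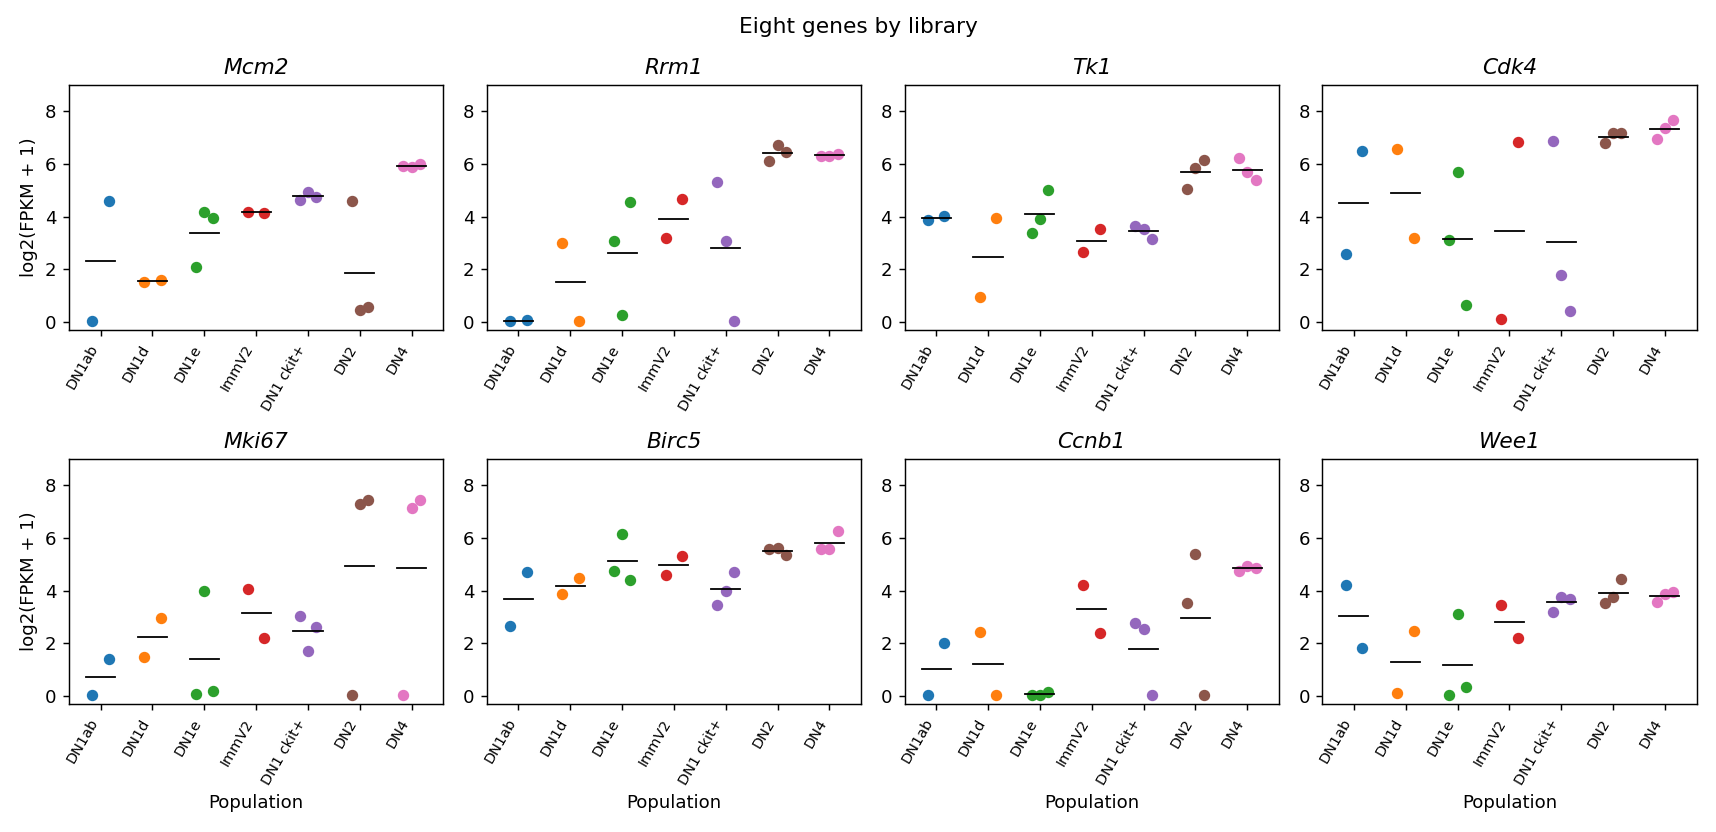
Level as log2(FPKM + 1) (vertical axis) of 8 genes in the 7 populations (horizontal axis). Each point is a library and each line the mean of its population. The 3 DN4 points of Mcm2 lie above all others, and those of DN2 and DN4 lie above the rest for Rrm1 and Tk1, while Mki67 has a library near 0 in both.

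The promoters of Mcm2, Rrm1 and Tk1 are shown because these 3 genes separated DN4, or DN2 and DN4, from all other libraries. Each sequence is the 250 bases before the annotated start of the gene, from RefSeq on GRCm38.p6, another build than that of the deposited values, and reads in the direction of transcription. Capitals mark a CHR element (TTTGAA) or a CCAAT box (CCAAT) on either strand, 2 elements known from promoters of cell cycle genes. No E2F motif, searched as TTTNNCGC on either strand, was found in these 3 windows.
Mcm2, chr6:88898781-88899030, minus strand: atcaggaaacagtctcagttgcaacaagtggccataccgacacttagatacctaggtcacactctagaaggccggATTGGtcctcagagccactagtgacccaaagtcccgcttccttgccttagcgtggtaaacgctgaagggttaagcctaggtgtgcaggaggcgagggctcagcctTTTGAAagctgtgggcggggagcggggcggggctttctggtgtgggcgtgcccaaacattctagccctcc
Rrm1, chr7:102441445-102441694, plus strand: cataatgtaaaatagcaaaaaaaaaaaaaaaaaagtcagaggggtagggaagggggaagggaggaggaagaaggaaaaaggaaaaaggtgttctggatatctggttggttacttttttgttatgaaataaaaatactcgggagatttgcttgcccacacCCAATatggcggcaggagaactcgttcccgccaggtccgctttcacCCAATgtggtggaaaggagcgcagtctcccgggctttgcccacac
Tk1, chr11:117826015-117826264, minus strand: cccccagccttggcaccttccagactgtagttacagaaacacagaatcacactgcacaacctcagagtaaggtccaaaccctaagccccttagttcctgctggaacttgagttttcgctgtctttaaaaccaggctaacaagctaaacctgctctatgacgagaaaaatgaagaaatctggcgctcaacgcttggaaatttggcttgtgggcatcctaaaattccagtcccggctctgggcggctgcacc
Mcm2 held 1 CHR element and 1 CCAAT box, Rrm1 held 2 CCAAT boxes, and Tk1 held none of the motifs. Of the 45 genes, 37 had a promoter in the RefSeq table. The CCAAT box was found in 25 of the 37 (67.6%), against 34.5% of all 27025 promoters in that table. The E2F motif was found in 8 of the 37 (21.6%), against 4.39% of all promoters, and these 8 were Cdk6, Cdk2, Cdc6, Mcm5, Mcm6, Mcm7, Pola1 and Cdk1. The CHR element was found in 8 of the 37 (21.6%), against 16.3% of all promoters. A match is a run of letters and not a shown binding site.

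The checkpoint kinases hold back the cycle when DNA is damaged or not yet copied. Wee1, which blocks Cdk1 until the cell is ready for mitosis, was at 10.8, 13.7 and 14.3 FPKM in DN4, 10.4, 12.6 and 20.7 in DN2 and 8.19, 12.7 and 12.0 in DN1 ckit+. It was at 17.6 and 2.52 FPKM in DN1ab, 0.0763 and 4.47 in DN1d, 0.0244, 7.70 and 0.258 in DN1e and 9.96 and 3.58 in ImmV2. The 9 libraries of DN1 ckit+, DN2 and DN4 spanned 8.19 to 20.7 FPKM, a narrow range beside the 0.0244 to 17.6 FPKM of the others, and the 2 ranges overlapped. Chek1, which acts when replication forks stall, was under 1 FPKM in 11 libraries and highest in DN4 3 at 18.6 FPKM.

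The S and M phase cyclins and their kinase were each higher in DN4 than in the mean of the 6 other populations (4 of 4, median log2 difference of 1.67, and 0.69 without DN4 3). Ccna2, the cyclin of the S and G2 phases, was at 112, 0.431 and 113 FPKM in DN4 and at 29.8, 9.35 and 88.3 in DN2. It was at 23.5 and 20.3 FPKM in DN1ab, 0.661 and 25.7 in DN1d, 0.01, 0.851 and 0.0659 in DN1e, 12.2 and 39.5 in ImmV2 and 10.7, 0.804 and 0.160 in DN1 ckit+. DN4 held both the highest levels and, in DN4 2, a level below most libraries, so it overlapped the rest. Ccnb1, the cyclin that takes Cdk1 into mitosis, was at 25.9, 29.9 and 27.8 FPKM in DN4 and at 10.6, 40.5 and 0.01 in DN2. It was at 17.3 and 4.25 FPKM in ImmV2, 5.79, 4.83 and 0.01 in DN1 ckit+ and 0.01, 0.01 and 0.107 in DN1e. In DN1ab it was at 0.01 and 2.97 FPKM and in DN1d at 4.44 and 0.01 FPKM. The DN4 libraries lay close together and above every library of the 5 populations other than DN2, where DN2 2 was higher. Ccnb2 was at 0.01, 45.0 and 42.4 FPKM in DN4 and Cdk1, the kinase of mitosis, at 16.7, 0.0336 and 18.2 FPKM there, each with a value near the lowest in 1 library. Cdk1 was highest in ImmV2 1, at 41.1 FPKM.

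Of the 9 genes of mitosis, Birc5 was the only one at 1 FPKM or more in all 18 libraries. Birc5, which encodes survivin of the chromosomal passenger complex, was at 46.4, 46.5 and 75.7 FPKM in DN4 and at 46.7, 47.8 and 39.8 in DN2. It was at 5.28 and 25.0 FPKM in DN1ab, 13.5 and 21.1 in DN1d, 25.8, 70.4 and 20.4 in DN1e, 23.4 and 38.7 in ImmV2 and 9.85, 14.9 and 24.8 in DN1 ckit+. It was above 5 FPKM in all 18 libraries, and DN1e 2 lay within the range of the DN4 libraries. Aurka, the kinase of the spindle poles, was in DN1e at 3.12, 10560.3 and 4.94 FPKM, and in DN1d at 5939.8 and 2.06 FPKM. It was at 13.0, 10.9 and 19.4 FPKM in DN4, 0.01, 0.01 and 11.4 in DN2, 0.145 and 0.01 in DN1ab, 0.01 and 0.01 in ImmV2 and 3.67, 0.01 and 1.05 in DN1 ckit+. The levels in DN1d 1 and DN1e 2 lay far above the 16 other libraries, where none was over 19.4 FPKM. Top2a, the topoisomerase that untangles sister chromatids, was at 333 FPKM in DN4 3, at 11.2 FPKM in DN2 2 and at 0.115 FPKM or less in the 16 other libraries. Aurkb, the kinase of the same complex as survivin, was at 1 FPKM or more in 4 libraries, with the highest level of 46.0 FPKM in DN4 3. The spindle checkpoint kinases Bub1 and Bub1b were each high in 2 of the 3 DN4 libraries. Bub1 was at 0.0600, 22.1 and 27.1 FPKM and Bub1b at 0.836, 73.1 and 87.1 FPKM in DN4, and the level in DN4 1 lay among those of the other populations. Kif11, the motor that separates the spindle poles, was at 0.01, 5.66 and 49.0 FPKM in DN4 and at 22.4 and 26.5 in DN1ab. Plk1, the polo-like kinase of mitotic entry, reached 177 FPKM in DN1e 3, and Cdc20, the activator of the anaphase-promoting complex, stayed at 9.91 FPKM or less.

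Mki67, whose protein Ki-67 marks cycling cells, was at 0.01, 157 and 172 FPKM in DN2 and at 0.01, 139 and 171 in DN4. It was at 15.7 and 3.59 FPKM in ImmV2, 7.20, 2.29 and 5.14 in DN1 ckit+ and 0.0637, 14.7 and 0.132 in DN1e. In DN1ab it was at 0.01 and 1.65 FPKM and in DN1d at 1.78 and 6.83 FPKM. The 4 libraries with the highest levels were 2 of DN2 and 2 of DN4, at 139 FPKM or more, and the third library of each population had Mki67 at the lowest value. The highest level elsewhere was 15.7 FPKM.

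The question of whether any of these genes differed between populations was tested with limma across all genes, with Benjamini-Hochberg adjustment. The moderated F test over the 7 populations was passed by 0 of the 44 genes and by 1.4% of all tested genes. At an unadjusted p under 0.05, 5 of the 44 remained, against 11.3% of all tested genes. The lowest adjusted p of limma's F test was that of Rrm1, 0.122, followed by Mcm4 at 0.339. With DN1e 2 left out, which alone held Cdkn2c at a high level, Cdkn2c passed (limma adjusted p = 0.0453). Over the settings tried, 146 to 464 of all tested genes passed, and the share without DN1e 2 is not given here. Since the labels do not tie replicates to separate animals, the p-values reflect only how these libraries vary, part of which may be technical.

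In DN4 against the mean of the 6 other populations, 38 of the 44 genes had a higher mean, and the median log2 difference was 1.32. Over all tested genes, 44.2% had a higher mean and the median was -0.17. With a filter of 5 FPKM in at least 3 libraries, this background was 50.2% with a median of 0.0035, beside 34 of 39 listed genes with a median of 1.32. Without DN4 3, 30 of the 44 were higher with a median of 0.57, beside a median of -0.26 over all tested genes. By role, all 4 genes of nucleotide supply were higher with the 3 libraries and also without DN4 3, with medians of 1.85 and 1.27. For mitosis, 8 of 9 genes were higher (median 1.33), and 5 of 9 without DN4 3 (median 0.78). For the replication fork, 3 of 4 were higher (median 1.05), and 2 of 4 without DN4 3 (median 0.06). The G1 cyclins and kinases gave 4 of 7 both times, with medians of 0.43 and 0.42. Limma called 0 of the 44 genes in this comparison, where a call needs an adjusted p under 0.05 and an absolute log2 difference of at least 1, and it called 0.188% of all tested genes. At an unadjusted p under 0.05, 11 of the 44 were higher and 0 lower, against 5.13% of all tested genes that were higher. Without DN4 3, 4 of 43 were higher at that level, and the share over all tested genes was not counted there. Without DN1e 2, limma called Cdkn2c (log2 difference 2.21, adjusted p = 0.0088). That library alone held Cdkn2c at a high level. Over the settings tried, 13 to 89 of all tested genes were called in this comparison.

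Rrm1 had the lowest p of the 44, with a log2 difference of 3.44 (SE 1.04, limma adjusted p = 0.319) and of 3.41 without DN4 3. Ccnb1 differed by 3.13 on the log2 scale (SE 0.98, limma adjusted p = 0.341), and by 3.13 without DN4 3. For Mcm3 the difference was 3.70 (SE 1.22, limma adjusted p = 0.393), and 3.10 without DN4 3. The mean it is set against includes DN1ab, DN1e and ImmV2, where every library had Mcm3 at the lowest value. The difference of Mcm2 was 2.93 (SE 0.98, limma adjusted p = 0.405), and 2.90 without DN4 3. The size of these 4 differences thus did not rest on DN4 3. It did for Top2a, with 2.62 and -0.14 without DN4 3, for Mcm7, with 1.42 and -0.94, for Mcm4, with 1.31 and -0.32, and for Mcm5, with 0.49 and -1.29. Aurkb, Chek1, Kif11 and Cdc45 also turned from higher to lower without DN4 3. These differences are on the log2(FPKM + 1) scale, which understates the change of low genes.

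**Figure D3:**
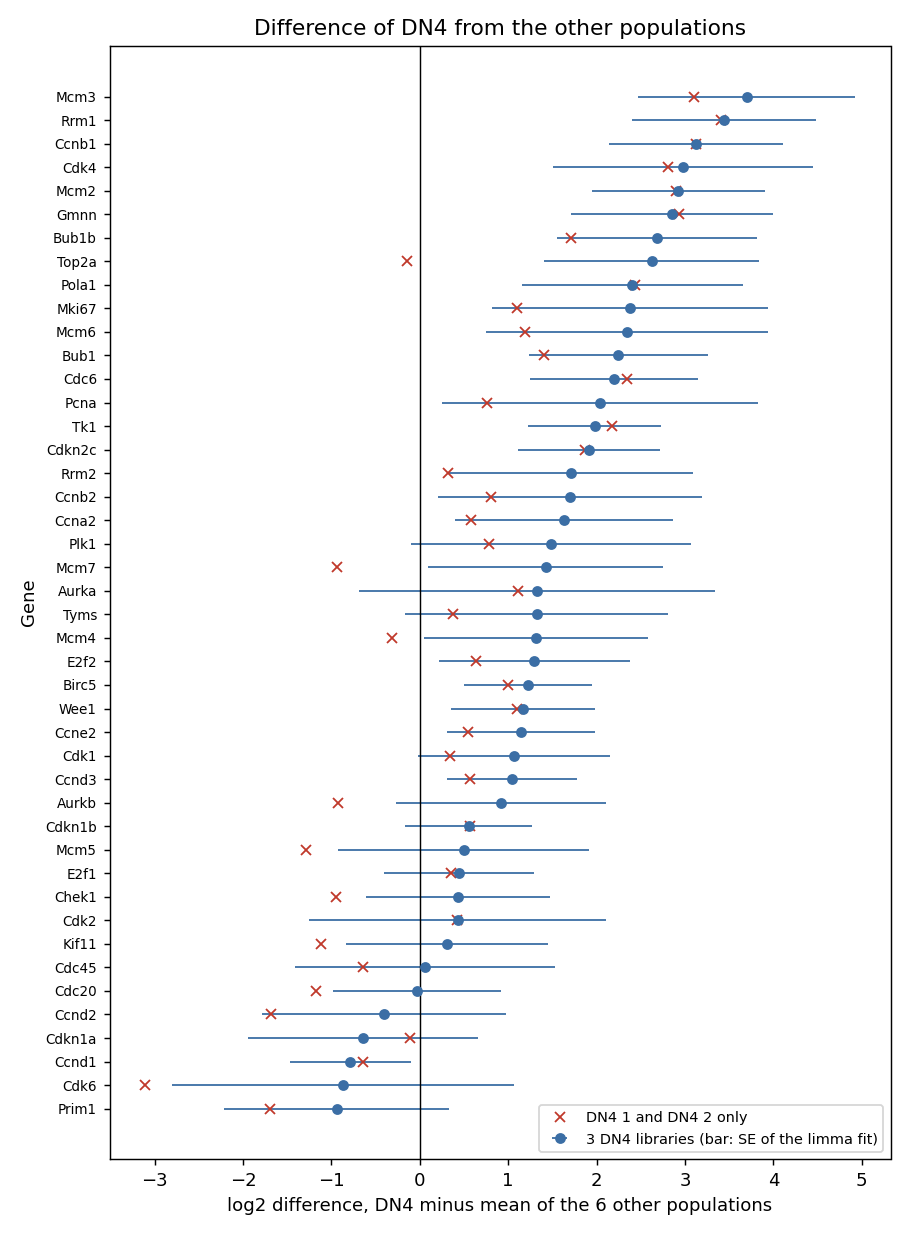
Log2 difference of DN4 from the mean of the 6 other populations (horizontal axis) for the 44 tested genes (vertical axis). Points with bars are the 3 DN4 libraries with the standard error of the limma fit, and crosses are DN4 1 and DN4 2 only. For Rrm1, Ccnb1 and Mcm2 cross and point lie together, and for Top2a, Mcm7 and Cdk6 they lie far apart.

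Population by population, DN4 lay above the DN1 subsets and ImmV2 for more of the genes than above DN2. Every DN4 library lay above every DN1ab library for 14 of the 44 genes (11.3% of all tested genes), and above every DN1d library for 14 (11.5% of all tested genes). Against DN1e this held for 10 genes (10.0% of all tested genes), against ImmV2 for 13 (10.6%) and against DN1 ckit+ for 12 (7.35%). Against DN2 it held for 2 (4.55%), Cdkn2c and Mcm2, a share near that of all tested genes (5.16%). Without DN4 3 the counts were the same against the first 5 populations and 3 against DN2, with 8.10% to 13.8% of all tested genes. Ccnb1, Cdc6, Cdk4, Gmnn, Mcm2, Rrm1 and Tk1 were among the genes in each of the first 5 of these comparisons. In the other direction, every DN1ab library lay above every DN4 library for Ccnd1 and Prim1 (4.55%, against 11.8% of all tested genes). Every DN2 library did so for Cdk2 and Prim1 (4.55%, against 4.5%). The first share is below that of all tested genes and the second is near it. No gene of the 44 had all libraries of DN1ab (1.33% of all tested genes), DN1d (1.15%), DN1e (1.09%), ImmV2 (0.86%), DN1 ckit+ (0.379%) or DN2 (0.175%) above all others.

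In the pairwise fits, limma called 0 of the 44 genes for DN4 against DN1d (0.359% of all tested genes called), DN1e (0.86%), DN1 ckit+ (0.208%) and DN2 (0.0815%). The median log2 difference of the 44 genes was 1.69 against DN1d, with 35 higher, and 1.67 against DN1e, with 36 higher. It was 1.39 against DN1 ckit+, with 34 higher, and 0.53 against DN2, with 30 higher. Medians over all tested genes were between 0 and 0.01 in these 4 comparisons, which share the DN4 libraries. Of all tested genes, 50.9%, 49.6%, 49.4% and 48.6% were higher in DN4 than in DN1d, DN1e, DN1 ckit+ and DN2. Without DN4 3, when Top2a no longer passed the filter, 28 of 43 were higher against DN1d (median 0.79), 29 against DN1e (median 0.48), 26 against DN1 ckit+ (median 0.90) and 22 against DN2 (median 0.04). The median against DN2 was 0.31 without DN2 1 and 0.34 without DN2 2. The lowest adjusted p of any of the 44 genes in a pairwise comparison was that of Ccnb1 in DN4 against DN1e. Its log2 difference was 4.79 (SE 1.27, limma adjusted p = 0.101). As Ccnb1 was at 0.01, 0.01 and 0.107 FPKM in DN1e, the size of this difference depends on the 1 FPKM added. In the same comparison, Cdkn2c was called without DN1e 2 (limma adjusted p = 0.0226) and Ccna2 without DN4 2 (limma adjusted p = 0.0492). Over the settings tried, 109 to 370 of all tested genes were called there. Mcm2 in DN4 against DN2 had a log2 difference of 4.06 (SE 1.26, limma adjusted p = 0.531).

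Against ImmV2, the reference population, limma likewise called 0 of the 44 genes in each of the 6 comparisons. The share of all tested genes called was 0.396% for DN1ab, 0.277% for DN1d, 0.591% for DN1e, 0.33% for DN1 ckit+, 0.188% for DN2 and 0.249% for DN4. For DN1ab, DN1d and DN1e, 19, 19 and 15 of the 44 were higher than in ImmV2, and 23, 24 and 26 were lower. Of all tested genes, 47.5%, 46.7% and 50.9% were higher. The median log2 differences of the 44 were -0.05, -0.17 and -0.11. Leaving out 1 library moved these medians, down to -0.57 without DN1ab 2, -0.79 without DN1d 2 and -0.48 without DN1e 2, and none rose above 0. The median was 0.31 for DN1 ckit+ with 26 higher, 0.64 for DN2 with 30 higher and 1.70 for DN4 with 34 higher. For DN1 ckit+ it was 0.02 with 22 higher without ImmV2 2 and 0.05, 0.14 and 0.08 without DN1 ckit+ 1, 2 and 3 in turn. For DN2 it ran from 0.50 without DN2 2 to 1.10 without DN2 1, and was 1.07 without ImmV2 1. Without DN4 3 the median for DN4 was 0.90, with 27 of 43 higher. Over all tested genes the median was between 0 and 0.01 in the 6 comparisons, which share the ImmV2 libraries. Of those genes, 51.4%, 51% and 51.1% were higher in DN1 ckit+, DN2 and DN4 than in ImmV2. Mcm4 in DN2 had the lowest adjusted p of the 44 in these comparisons, with a log2 difference of 6.08 (SE 1.82, limma adjusted p = 0.336). At an unadjusted p under 0.05, 3 of the 44 were higher and 0 lower in DN2, and likewise in DN4, where 1 of 43 was higher without DN4 3. Of all 24525 tested genes, 645 were higher and 1053 lower in DN2 at that level, and 717 and 1006 in DN4. The share over all tested genes was not counted without DN4 3.

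Within the early subsets, 14 of the 44 genes were higher in DN1d than in DN1 ckit+ (median log2 difference -0.44) and 16 were higher in DN1e than in DN1 ckit+ (median -0.89). Of all tested genes, 45.7% and 48.7% were higher in these comparisons. With 1 library left out the first median ran from -0.59 without DN1 ckit+ 2 to -0.09 without DN1 ckit+ 1, and was -0.24 without DN1d 2. The second ran from -1.12 without DN1e 2 to -0.30 without DN1 ckit+ 1, and was -0.51, -0.54 and -0.47 without DN1 ckit+ 2, DN1 ckit+ 3 and DN1e 1. In DN2 against DN1 ckit+, 26 were higher, with a median of 0.56, and 48.3% of all tested genes were higher. Without DN1 ckit+ 2 this was 22 higher with a median of 0.08, without DN2 3 it was 25 with a median of 0.19, and without DN2 1 it was 30 with a median of 0.87. Limma called 0 of the 44 in each, and 0.363%, 0.693% and 0.0612% of all tested genes. At an unadjusted p under 0.05, 0 genes were higher and 1 lower in DN1d, 0 higher and 3 lower in DN1e, and 5 higher and 1 lower in DN2. Of all 24525 tested genes, 1213 were higher and 854 lower in DN1d at that level. In DN1e 1395 were higher and 1246 lower, and in DN2 703 were higher and 755 lower. Mcm4 had the lowest adjusted p in DN2 against DN1 ckit+, with a log2 difference of 5.06 (SE 1.63, limma adjusted p = 0.492).

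The wider cycle was read from 119 other cell cycle genes, of which 28 act in G1 or as inhibitors, 44 in replication and 47 in mitosis. In DN4 against the mean of the 6 other populations, 101 of the 119 (84.9%) had a higher mean, with a median log2 difference of 1.22. Over all tested genes this was 44.2%, with a median of -0.17. By group this was 42 of 44 for replication (median 1.35), 41 of 47 for mitosis (median 1.49) and 18 of 28 for G1 and inhibitors (median 0.71). DN4 held the highest level of 50 of the 119 (42.0%, against 13.1% of all tested genes), and of 40 (33.6%, against 14.6%) without DN4 3. Without that library 77 of the 119 had a higher mean than in the other populations, with a median of 0.72. By group these were 32 of 44 (median 1.04), 33 of 47 (median 0.83) and 12 of 28 (median -0.37). The F test was passed by 0 of the 119 by limma, and 17 had an unadjusted p under 0.05, where 11.3% of all tested genes did. Across the comparisons limma called 1 of them, Tpx2, a spindle assembly factor that activates Aurka, in DN4 against DN1e (adjusted p = 0.0314). A call for 1 of 119 genes is near the 0.86% of all tested genes called in that comparison. Tpx2 was at 93.1, 69.0 and 63.3 FPKM in DN4 and at the lowest value in all 3 DN1e libraries, so no fold is given. It was at 1.85, 83.8 and 1.93 FPKM in DN2, 14.4, 1.75 and 25.8 in DN1 ckit+, 7.22 and 18.6 in ImmV2, 2.17 and 27.6 in DN1ab and 7.73 and 5.36 in DN1d. DN2 2 was the only library outside DN4 above 63.3 FPKM, the lowest DN4 level. Leaving out any library of DN4 or DN1e ended this call, with limma adjusted p-values of 0.0543 to 0.0919.

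How far replicates lay apart bears on all of these values. In DN2, 34 genes reached 10 FPKM in at least 1 library, and 16 of them (47.1%) were at the lowest value in another DN2 library, against 43.9% of all rows that reached 10 FPKM there. In DN4 this was 15 of 37 genes (40.5%, against 41.7% of all rows), and in DN1 ckit+ 6 of 27 (22.2%, against 39.3%). It was 8 of 20 in DN1ab (40.0%, against 32.4%), 4 of 16 in DN1d (25.0%, against 35.7%), 7 of 21 in DN1e (33.3%, against 45.2%) and 9 of 23 in ImmV2 (39.1%, against 33.3%). The median level of the 45 genes was 4.32, 7.21 and 28.6 FPKM in the 3 DN4 libraries and 2.21, 3.52 and 12.1 FPKM in the 3 DN2 libraries. Elsewhere it ran from 0.0706 FPKM in DN1e 1 to 7.20 FPKM in DN1 ckit+ 1, so DN4 2 lay just above the highest of those libraries and DN4 1 did not.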

How the data were processed

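RNA sequencing of 18 libraries from 7 sorted thymocyte populations was analysed. The authors deposited 1 table of log2 FPKM, in which each gene symbol has 1 row and each library 1 column. The aligner Bowtie and the genome build mm8 are named in the submitters' processing notes. Not given in the sources used here are its version, the annotation, the quantifier and how values were normalized. The same holds for the step from transcripts to 1 row per symbol, which can decide whether a gene has the lowest value.

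FPKM was recovered from the log2 values and analysed as log2(FPKM + 1). The filter of 1 FPKM in 2 or more libraries kept 24525 of 34082 genes. They were tested two-sided by limma 3.58.1 (R 4.3.3) using lmFit, contrasts.fit and eBayes with its trend option, with all 18 libraries in 1 fit of population means and Benjamini-Hochberg adjustment over all tested genes. The fit made 14 comparisons. The procedure was tested on simulated data. Library totals are not known, since no counts were used, so no counting interval is given.

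Any listed gene could be named, and values in every library are given for those past a test and, in each role, for the gene of highest median FPKM and that of lowest F test p. Tk1, Mcm3, Cdc6 and other genes named with fewer values were chosen after their values were seen. The members and lists were chosen with earlier results of these data known. Alternatives were pseudocounts of 0.1 and 5 FPKM, the values as deposited, no filter, a filter of 5 FPKM in 3 libraries, quantile normalization, a replicate block, fits of the compared populations only and leaving out each library. Promoters are from RefSeq on GRCm38.p6, matched by symbol.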

Additional observations from a re-analysis of the deposited data

How the results depend on the processing

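Leaving out 1 library at a time changed the number of genes called in 3 results. Without DN1e 2, Cdkn2c passed limma's F test over the 7 populations (adjusted p = 0.0453). It was then also called in DN4 against DN1e (limma adjusted p = 0.0226), where both remaining DN1e libraries had it at the lowest value so that no fold is given, and against the mean of the 6 other populations, with a log2 difference of 2.21 (limma adjusted p = 0.0088). Without DN4 2, Ccna2 was called in DN4 against DN1e, with a log2 difference of 6.50 (limma adjusted p = 0.0492). As Ccna2 was at 0.01, 0.851 and 0.0659 FPKM in DN1e, the size of that difference depends on the 1 FPKM added. Each of these 3 counts ranged from 0 to 1 over the libraries left out, and the cause was not tested. In the other 12 comparisons and tests, 0 of the listed genes were called in every setting tried.

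In DN4 against the mean of the 6 other populations, the number of listed genes that were higher stayed between 30 and 41, 30 being without DN4 3. Their median log2 difference was 0.86 with a pseudocount of 5 FPKM and 1.99 with values as deposited. It ranged from 0.57 to 1.73 when 1 library was left out. The background moved too. Of all tested genes, 44.2% were higher in the main fit (median -0.17) and 40.8% with a pseudocount of 5 FPKM (median -0.10). The share was 50.8% with values as deposited (median 0.05) and 50.2% with the filter of 5 FPKM in 3 libraries (median 0.0035). With the replicate block, 20 rather than 14 of the listed genes were higher in DN1d than in DN1 ckit+ (median -0.26), and the median of DN1 ckit+ against ImmV2 was 0.05. The call of Tpx2 was lost with a pseudocount of 5 FPKM (limma adjusted p = 0.0672) and with the replicate block (limma adjusted p = 0.0558). Without DN4 3, Rrm1, Ccnb1 and Mcm2 kept their log2 differences within 0.03.

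With the replicate block, 0 listed genes were called. Deviations of libraries with the same replicate number had correlations of -0.0164 to 0.0174, so no pairing by number was seen. This cannot exclude a pairing, since many rows are at the lowest value in 1 replicate and high in another. Calls over all tested genes moved more: 343 passed the F test, with 146 to 464 over the settings, and 46 were called in DN4 against the mean of the others, with 13 to 89. In DN4 against DN1e 211 were called, with 109 to 370. With ImmV2 1 and DN2 1 left out, a setting chosen after seeing the data, 39 of the listed genes were higher in DN4 than in the mean of the others. Groups of 2 or 3 libraries and the many rows at the lowest value limit what these tests can show.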

Other observations

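H2afz, which encodes the histone variant H2A.Z and is known to be high in dividing cells, had the lowest F test p of the 119 other cell cycle genes and was chosen for mention after its values were seen. It was at 431, 708 and 539 FPKM in the 3 DN2 libraries and at 815 FPKM in DN4 3. In the 14 other libraries it was at 2.71 FPKM or less, DN4 1 and DN4 2 included. Limma's F test gave an adjusted p of 0.0600.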
